A study of Mus musculus with 4 samples.

Results

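The 40 mitosis and cell cycle genes described here were chosen by name, as genes of the G2/M phase, the spindle and the control of the cell cycle. The rule uses no measured value, although earlier results of these data were known when the list was made. All 40 were found among the 19339 genes listed in each library. All 40 also passed the filter on low values, at least 1 FPKM (fragments per kilobase of transcript, scaled to the mapped fragments of the library) in at least 2 libraries, which left 12009 genes tested. Of the 40, 24 act in mitosis itself and are called mitotic members here, and 16 are G1 and S-phase cyclins and kinases, inhibitors of cyclin-dependent kinases or regulators of transcription.

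The cells were TCRβ+CD8αα+ intraepithelial lymphocytes (IELs), T cells that live among the epithelial cells of the gut, have an αβ receptor and display CD8 as a homodimer of its α chain. They were sorted from the small intestine of C57BL/6 mice as CD45+CD4-TCRβ+CD8α+CD8β- cells. The comparison asked how transcript levels in these cells differ when Kdm6b, an enzyme that removes methyl groups from lysine 27 of histone H3, is deleted in T cells. There were 2 control libraries, labelled Con1 and Con3, from Kdm6bfl/fl mice, and 2 Kdm6b-deficient libraries, labelled KO1 and KO3, from Kdm6bfl/fl-CD4Cre mice. The mice of both groups carried the floxed alleles, only the second group carried the Cre transgene, which becomes active in late double-negative thymocytes and therefore in most T cells, and the age of the mice was not given in the sources used here. Each library held the pooled RNA of 3 mice, so the spread between libraries is that between pools.

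Cells enter the cycle when D-type cyclins with Cdk4 and Cdk6, and then E-type cyclins with Cdk2, phosphorylate the retinoblastoma protein and release E2F transcription factors, while inhibitors such as p21 and p27 hold these kinases back. Late in the cycle the factors B-Myb and FoxM1 switch on the mitotic genes, cyclin B with Cdk1 starts mitosis, the spindle checkpoint holds the cell until every chromosome is attached, and the anaphase-promoting complex then destroys the cyclins. Because transcripts of the mitotic genes accumulate in G2 and M phase, their level in bulk RNA is commonly read as a measure of how many cells divide.

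The targeted gene was measured first. *Kdm6b* had 16.5 FPKM in Con1, 16.0 in Con3, 18.2 in KO1 and 11.1 in KO3. The library labelled KO1 was thus above both control libraries and the library labelled KO3 below them. The difference between the groups was -0.18 on the log2(FPKM + 1) scale (SE 0.29, 95% interval -0.91 to 0.56, limma, Benjamini-Hochberg adjusted p = 0.886, n = 2 against 2). A gene-level value also takes in exons that the deletion leaves in place, so it checks the genotype only in part, and the libraries are named by their labels below.

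The markers of the sorted cells were present in all libraries, together with transcripts of gut epithelium. None of 11 T cell and IEL markers was at 0 in any library, and their summed level was 27183 FPKM in Con1, 18727 in Con3, 17815 in KO1 and 13706 in KO3. None of 22 epithelial markers was at 0 either, and their summed level was 1440, 4528, 4202 and 11152 FPKM in the same order. The sum of 6 markers of crypts and stem cells, the dividing part of the epithelium, was 107, 292, 321 and 799 FPKM. The epithelial and crypt sums were thus lowest in Con1 and highest in KO3, and *Lgr5*, which marks intestinal stem cells, had 0.51, 1.14, 1.11 and 5.85 FPKM. The sum of 4 myeloid markers was 433, 294, 482 and 694 FPKM, higher in both KO libraries than in either control, and that of 4 B lineage markers was 38.6, 32.7, 36.0 and 31.4 FPKM. Markers that the gate removes followed another order, with *Cd4* at 30.6, 10.1, 30.5 and 3.17 FPKM and *Cd8b1* at 0, 0.90, 1.64 and 0.73 FPKM. Total reads are unknown, and the relative depth, with Con1 as 1, was 0.981 in Con3, 1.04 in KO1 and 0.834 in KO3. In bulk RNA, fewer cells of a type and less RNA per cell cannot be told apart.

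The 40 genes were expressed in all libraries and none of them differed between the groups after adjustment. Their summed level was 1864 FPKM in Con1, 2417 in Con3, 2067 in KO1 and 2165 in KO3, which was 0.322%, 0.393%, 0.343% and 0.335% of all FPKM in these libraries. The highest levels were those of *Birc5* (survivin, a subunit of the chromosomal passenger complex), at 153 to 216 FPKM, *Ube2c* (the ubiquitin-conjugating enzyme of the anaphase-promoting complex), at 127 to 196 FPKM, and *Cdk4*, at 141 to 181 FPKM. The lowest were those of the transcription factor genes *E2f1*, at 2.84 to 7.22 FPKM, *Mybl2*, at 4.21 to 4.91 FPKM, and *Foxm1*, at 4.26 to 5.28 FPKM, together with *Ccnd1*, at 0.86 to 8.85 FPKM. The median member lay at 31.7 to 49.7 FPKM, and the median of all genes tested at 12.6 to 13.4 FPKM.

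**Figure D1:**
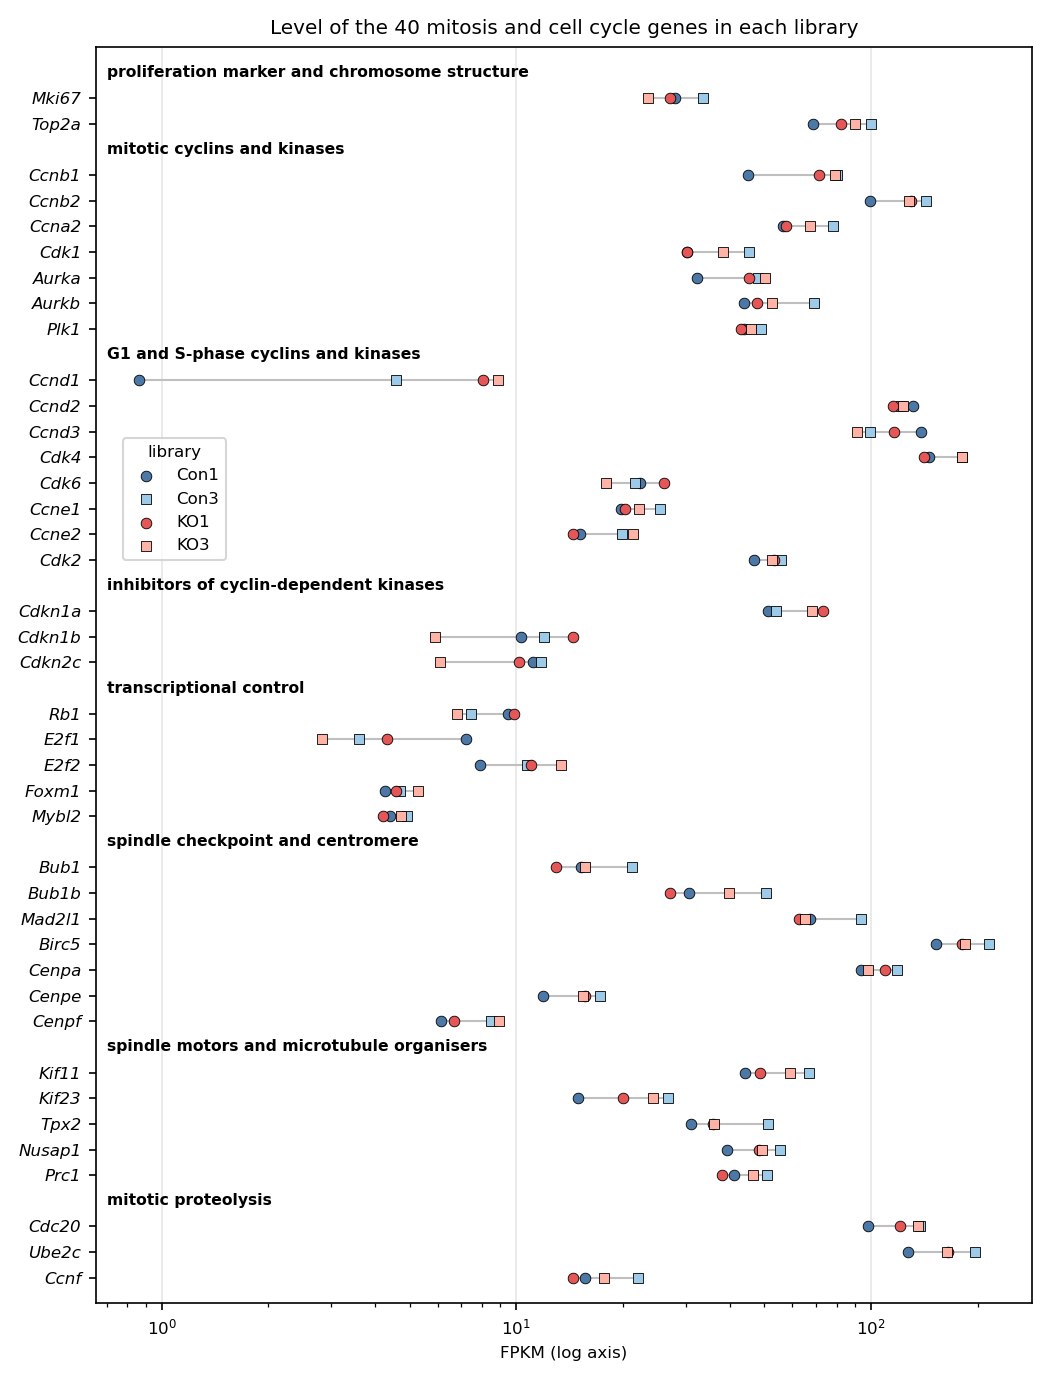
FPKM (log axis) of each of the 40 genes in the 4 libraries, 1 point per library, with a line from the lowest to the highest library and the genes grouped by role. Control and KO points interleave for 34 genes, and *Ccnd1* has the widest line, from 0.86 FPKM in Con1 to 8.85 FPKM in KO3.

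None of the 40 genes was called at an adjusted p under 0.05 in limma, nor was any of the 12009 genes tested (0.0%), with adjusted p values of 0.755 to 0.995 among the 40. At an unadjusted p under 0.05 there were 2 of the 40 (*Ccnd1* and *Cdkn1a*), beside 5.35% of all genes tested. Both KO libraries lay above both control libraries for 3 of the 40 (*Ccnd1*, *Cdkn1a* and *E2f2*), beside 18.4% of all genes tested, and below both for 3 (*Mki67*, *Cdkn2c* and *Mad2l1*), beside 18.6%. These 6 genes without overlap stand beside 37.0% of all genes tested, and for the other 34 the groups overlapped. These counts rest on the control libraries. Without Con1, 27 of the 40 were lower in both KO libraries, beside 3435 of the 12009 genes tested, and without Con3, 23 of the 40 were higher, beside 4578 of the 12009.

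The differences between the groups ranged from -0.48 to 1.55 on the log2(FPKM + 1) scale, with a median of -0.03, beside a median of 0.00 over all genes tested. Of the 40, 23 were negative and 17 positive, beside 5993 and 6016 of the 12009 genes tested. A single member, *Ccnd1*, was above 1, as were 6.2% of all genes tested, and none was below -1, beside 0.441%. The 95% interval of a member extended, in the median, 0.63 to either side of its difference, and differences of that size could not be told from 0 for most of these genes with 2 libraries a group. With 2 libraries against 2, an exact two-sided permutation test of a single gene cannot go below p = 0.333.

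**Figure D2:**
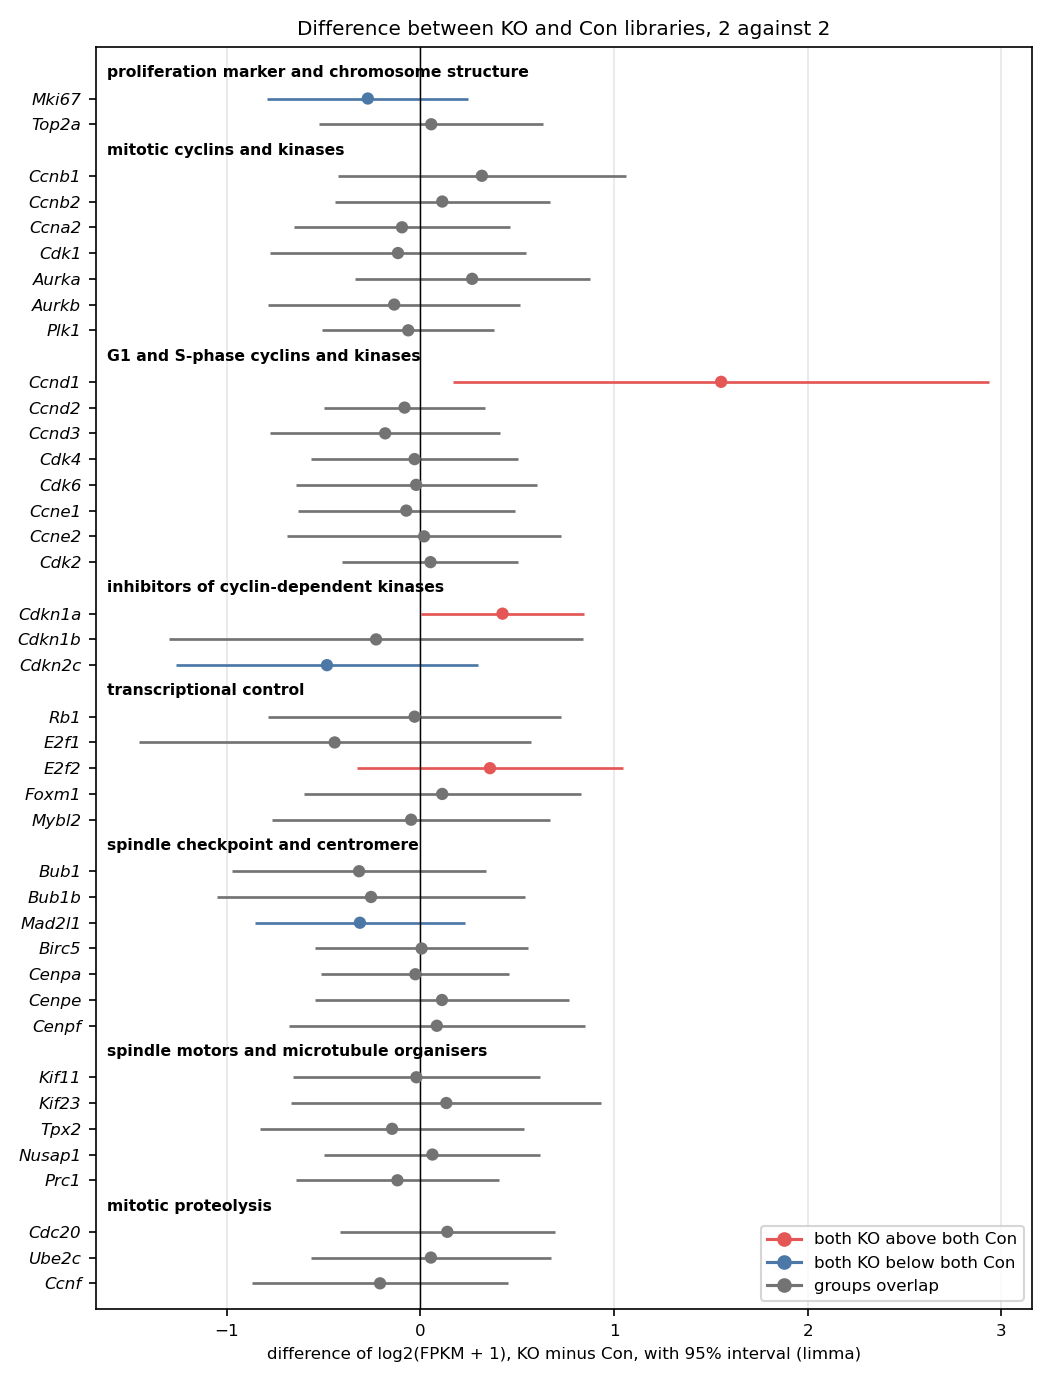
Difference of mean log2(FPKM + 1) between the libraries labelled KO and the control libraries (points) with its 95% interval from limma (lines, n = 2 against 2), by role, with genes whose groups do not overlap in red or blue. The intervals of all genes but *Ccnd1* and *Cdkn1a* include 0.

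The spread between the control libraries was larger than the difference between the groups for 36 of the 40 genes (90.0%), beside 56.2% of all genes tested. This was clearest in the mitotic members. All 24 were higher in Con3 than in Con1, with a median difference of 0.50 on the log2 scale, and all 24 were higher in Con3 than in KO1. The highest of the 4 libraries was Con3 for 22 of them (91.7%, beside 16.1% of all genes tested), and the lowest was Con1 for 17 (70.8%, beside 31.8%). Both held for 15 of them (62.5%, beside 5.09%). The libraries labelled KO lay between these extremes, so that the summed level of the 24 was 1237 FPKM in Con1, 1779 in Con3, 1441 in KO1 and 1534 in KO3.

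The direction of a comparison of single libraries therefore turned on the control library used. Against Con1, 17 of the 24 were higher in KO1 (median log2 difference 0.17) and 22 were higher in KO3 (median 0.33). Against Con3, none was higher in KO1 (median -0.30) and 2 were higher in KO3 (median -0.20). The libraries labelled KO differed less from each other, with 19 of the 24 higher in KO3 than in KO1 and a median log2 difference of 0.14. Epithelial and crypt marker sums were also lower in Con1 than in Con3, but they were higher in KO3 than in Con3, unlike the mitotic members. The part of epithelial RNA in the level of the mitotic members was not tested.

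**Figure D3:**
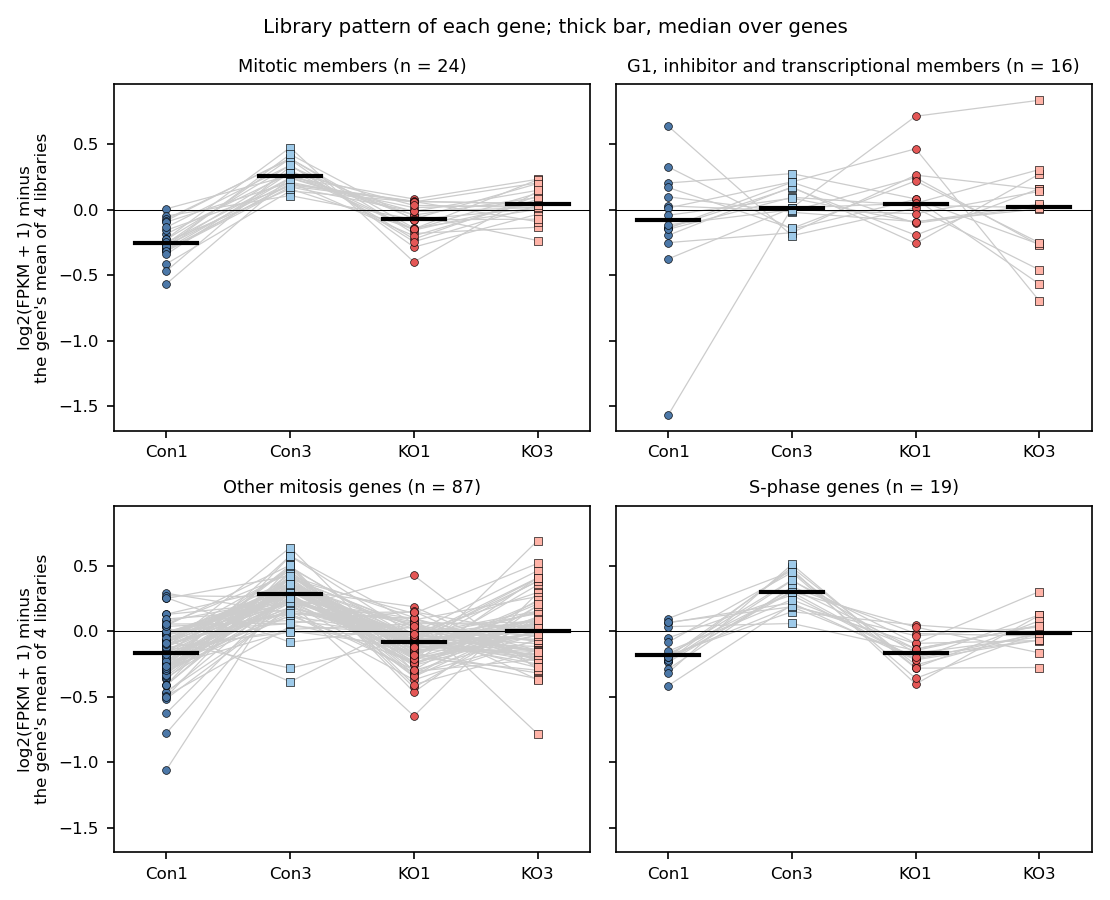
Level of each gene in the 4 libraries as log2(FPKM + 1) minus its own mean over the libraries, for the 24 mitotic members, the 16 other members, 87 other mitosis genes and 19 S-phase genes, with a thin line per gene and a thick bar at the median. In the mitotic members, the other mitosis genes and the S-phase genes the median is highest in Con3, and in the 16 other members the medians of the libraries lie close together.

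The proliferation marker *Mki67* encodes Ki-67, a protein that coats mitotic chromosomes and is present in all cycling cells. It had 28.1 FPKM in Con1, 33.7 in Con3, 27.2 in KO1 and 23.6 in KO3 (chromosome 7, 135689784 to 135716450, GRCm38.p6). Both KO libraries were below both control libraries, with KO1 only just below Con1. The means were 30.9 ± 3.97 FPKM in the control and 25.4 ± 2.54 FPKM in the KO libraries (SD, n = 2 each), a log2 difference of -0.27 (SE 0.21, 95% interval -0.79 to 0.25, limma adjusted p = 0.777). It was -0.40 without Con1, -0.14 without Con3, -0.37 without KO1 and -0.17 without KO3. It was 0.14 with scaling to *Cd3* genes and *Ptprc*, which moved the median of all genes to 0.38. *Top2a*, which encodes the topoisomerase that untangles replicated chromosomes, had 68.6, 100.2, 82.3 and 90.4 FPKM in the order Con1, Con3, KO1 and KO3, which is used from here on. Its KO libraries lay between the control libraries.

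Among the cyclins and kinases that drive mitosis, the groups overlapped for all 7 genes and the median log2 difference was -0.06. *Ccnb1*, the B-type cyclin that activates Cdk1 at entry into mitosis, had 45.1, 80.0, 71.3 and 79.2 FPKM. Con1 stood below the other libraries, which lay close together, and the log2 difference of 0.32 (SE 0.30) had a 95% interval of -0.42 to 1.06. Leaving out Con1 turned it to -0.09, and leaving out Con3 made it 0.72. *Ccnb2*, the second B-type cyclin, had 99.5, 142.6, 129.8 and 128.1 FPKM, in the same order of libraries but for KO1 and KO3. *Cdk1*, the kinase itself, had 30.2, 45.2, 30.2 and 38.3 FPKM, so that KO1 equalled Con1 and both libraries numbered 3 were higher.

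*Ccna2*, the cyclin of S and G2 phase, showed the same order as *Cdk1*, with 56.6, 78.3, 57.8 and 67.1 FPKM. *Aurka*, the kinase that matures the spindle poles, had 32.4, 48.1, 45.4 and 50.3 FPKM, and it was one of only 2 mitotic members, with *Cenpf*, that were highest in KO3. *Aurkb*, the kinase of the chromosomal passenger complex, had 43.8, 69.2, 47.6 and 52.6 FPKM, with Con3 above the other libraries. *Plk1*, a kinase with roles from mitotic entry to cytokinesis, was the most even member of this group. It had 43.9, 49.0, 43.1 and 45.7 FPKM, with a log2 difference of -0.06 (95% interval -0.51 to 0.38).

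The genes of the spindle checkpoint were lower in the libraries labelled KO than in Con3, and for *Mad2l1* than in either control. *Mad2l1* encodes Mad2, which binds Cdc20 at the checkpoint (chromosome 6, 66535221 to 66541107). It had 67.3 FPKM in Con1, 94.0 in Con3, 62.8 in KO1 and 65.0 in KO3. The KO libraries lay just below Con1 and far below Con3. The log2 difference was -0.31 (SE 0.22, 95% interval -0.85 to 0.23, limma adjusted p = 0.768), and it was -0.55 without Con1 and -0.07 without Con3.

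*Bub1* and *Bub1b* encode kinase-like proteins of the kinetochore that also signal unattached chromosomes. *Bub1* had 15.2, 21.2, 13.0 and 15.6 FPKM, a log2 difference of -0.32 (95% interval -0.97 to 0.34) that was -0.54 without Con1 and -0.09 without Con3. *Bub1b* had 30.7, 50.4, 27.1 and 39.8 FPKM, a log2 difference of -0.25 (95% interval -1.05 to 0.54). This was -0.60 without Con1, and it turned to 0.09 without Con3 and 0.02 without KO1. In both genes KO1 was the lowest library and KO3 lay between the control libraries. *Birc5* had 153, 216, 180 and 184 FPKM, and its group means of 184 ± 44.6 and 182 ± 2.69 FPKM (SD, n = 2 each) were the closest of all 40 genes on the log2 scale.

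The centromere genes differed little between the groups, with log2 differences of -0.03, 0.11 and 0.08. *Cenpa*, the histone H3 variant that marks the centromere, had 93.8, 118.7, 109.3 and 98.2 FPKM. *Cenpe*, a kinesin that moves chromosomes to the spindle equator, had 11.9, 17.2, 15.6 and 15.4 FPKM. *Cenpf*, a large protein of the kinetochore, had 6.14, 8.46, 6.65 and 8.93 FPKM. Con1 was the lowest library for all of these.

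Motors and organisers of the spindle were highest in Con3 for all 5 genes, and their median log2 difference between the groups was -0.02. *Kif11* encodes the kinesin that pushes the spindle poles apart and had 44.3, 66.7, 48.6 and 59.1 FPKM. *Kif23*, a kinesin of the central spindle, had 15.0, 26.7, 20.0 and 24.3 FPKM, and after *Ccnb1* it was the mitotic member with the widest gap between the control libraries (0.80 on the log2 scale). *Prc1*, which bundles microtubules of the central spindle, had 41.1, 50.9, 38.1 and 46.4 FPKM. For *Kif11* and *Kif23* the KO libraries lay between the control libraries, and for *Prc1* KO1 was lowest.

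*Tpx2*, which starts microtubule growth near chromosomes, had 31.1, 51.2, 35.9 and 36.0 FPKM, with the KO libraries nearly equal. *Nusap1*, which links spindle microtubules to chromatin, had 39.3, 55.5, 48.3 and 49.3 FPKM, again with the KO libraries together between the controls. Among the genes of mitotic proteolysis, the KO libraries also lay between the controls for *Cdc20* and *Ube2c*. *Cdc20*, the activator of the anaphase-promoting complex, had 97.8, 137.7, 121.0 and 135.3 FPKM, and *Ube2c* had 127, 196, 165 and 163 FPKM. *Ccnf*, an F-box protein that directs ubiquitination in G2 phase, had 15.6, 22.1, 14.4 and 17.7 FPKM, with KO1 just under Con1.

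The promoters of the mitotic members were searched for known motifs. Many mitotic promoters are known to carry CCAAT boxes, bound by NF-Y, and a cell cycle homology region, bound by the MuvB complex with B-Myb or FoxM1. RefSeq promoters (GRCm38.p6, the 250 bases before each annotated start site) were found for 32 of the 40 genes, 22 promoters of 21 mitotic members and 15 of 11 other members. *Aurkb*, *Ccna2*, *Ccnd1*, *Ccnd2*, *Ccne2*, *Foxm1*, *Rb1* and *Tpx2* were not matched. The promoters of the 4 mitotic members with the highest mean FPKM are printed 5′ to 3′ on the strand of the gene, to show how the matches are arranged, and capitals mark CCAAT or TTTGAA on either strand. Their positions are chr11:117848987-117849236 (+) for *Birc5*, chr2:164769679-164769928 (+) for *Ube2c*, chr9:70421555-70421804 (-) for *Ccnb2* and chr4:118437344-118437593 (-) for *Cdc20*, each ending at the base before the start site.
Birc5: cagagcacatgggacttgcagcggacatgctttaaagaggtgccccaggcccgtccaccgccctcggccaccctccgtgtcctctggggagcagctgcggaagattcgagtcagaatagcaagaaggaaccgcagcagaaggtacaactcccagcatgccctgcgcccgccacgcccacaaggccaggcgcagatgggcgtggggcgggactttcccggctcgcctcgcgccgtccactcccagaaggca
Ube2c: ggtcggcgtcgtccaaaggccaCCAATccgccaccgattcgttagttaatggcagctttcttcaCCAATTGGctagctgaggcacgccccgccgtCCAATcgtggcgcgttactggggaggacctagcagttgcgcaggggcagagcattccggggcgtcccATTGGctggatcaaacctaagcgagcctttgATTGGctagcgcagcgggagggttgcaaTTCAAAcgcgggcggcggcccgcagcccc
Ccnb2: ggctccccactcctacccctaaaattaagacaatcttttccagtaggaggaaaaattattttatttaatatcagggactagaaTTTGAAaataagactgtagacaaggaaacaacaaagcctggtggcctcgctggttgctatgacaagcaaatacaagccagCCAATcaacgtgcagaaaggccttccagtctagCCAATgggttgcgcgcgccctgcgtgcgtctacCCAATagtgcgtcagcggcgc
Cdc20: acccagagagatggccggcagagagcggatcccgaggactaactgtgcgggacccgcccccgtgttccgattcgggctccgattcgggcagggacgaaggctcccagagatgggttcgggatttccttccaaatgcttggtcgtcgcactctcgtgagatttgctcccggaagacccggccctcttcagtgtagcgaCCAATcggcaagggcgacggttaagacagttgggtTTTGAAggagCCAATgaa

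The *Cdc20* promoter held the cell cycle homology region TTTGAA starting 18 bases before the start site and CCAAT 53 and 8 bases before it. The *Ube2c* promoter held 6 matches to CCAAT, of which 2 on opposite strands share 2 bases, and TTCAAA, the same motif read on the other strand, 29 bases before the start site. The *Ccnb2* promoter held CCAAT 87, 54 and 21 bases before the start site, and its TTTGAA lay farther off, at 167 bases. The *Birc5* promoter held neither of these sequences within this window, although the gene had the highest mean level of the 40.

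Over all 22 promoters of mitotic members, 86.4% held CCAAT on either strand, beside 36.0% of the 11901 promoters of genes tested and 33.8% of all 32851 promoters. At least 2 matches to CCAAT were present in 54.5%, beside 13.4% and 10.1%. TTTGAA was present in 40.9%, beside 11.3% and 16.0%, and its variant TTCGAA in 9.09%, beside 1.87% and 1.34%. CCAAT together with either of these forms was present in 45.5%, beside 5.12% and 6.02%. Neither TTTCCCGC nor TTTGGCGC, forms of the E2F site, was found in these 22, and they occurred in 1.72% and 0.79% of promoters of genes tested. The 15 promoters of the other members were close to all genes for CCAAT, at 33.3%, and a single promoter (6.67%) held TTTGAA. Matches of different motifs were counted separately and may overlap, a match is not evidence of binding, and no test was made of these shares.

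**Figure D4:**
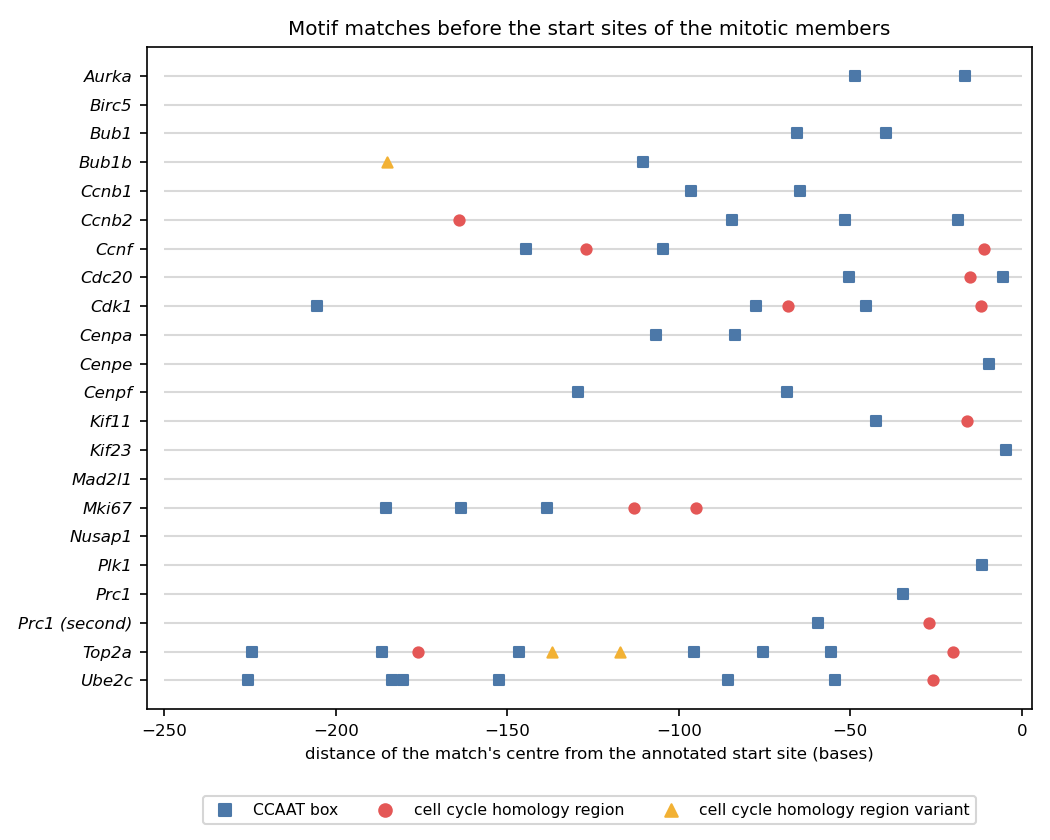
Positions of matches to CCAAT (squares), TTTGAA (circles) and TTCGAA (triangles), on either strand, in the 250 bases before the RefSeq start sites of the mitotic members, with the distance in bases from the start site on the horizontal axis and a row per promoter. *Top2a* and *Ube2c* each hold 6 matches to CCAAT, and *Birc5*, *Mad2l1* and *Nusap1* hold none of the motifs shown.

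The 16 other members showed the pattern of the mitotic members in part. Con3 was higher than Con1 for 11 of the 16, beside 5890 of the 12009 genes tested, and was the highest library for 5 of the 16 (31.25%, beside 16.1%). Con1 was the lowest and Con3 the highest library for 2 of them, *Ccne1* and *Cdk2* (12.5%, beside 5.09%). The median log2 difference between the groups was -0.03, and their summed level was 627, 638, 626 and 631 FPKM. The groups did not overlap for 4 of the 16, beside 37.0% of all genes tested. *Ccnd2* and *Ccnd3* were the D-type cyclins of these cells, and *Ccnd1* was far lower.

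*Ccnd1* encodes cyclin D1, which many epithelial and mesenchymal cells use in G1 and mature T cells use little (chromosome 7, 144929931 to 144939831). It had 0.86 FPKM in Con1, 4.57 in Con3, 8.05 in KO1 and 8.85 in KO3. The KO libraries were close to each other and above both controls, while the controls differed 5.31-fold. The means were 2.71 ± 2.62 and 8.45 ± 0.57 FPKM (SD, n = 2 each), a log2 difference of 1.55 (SE 0.55, 95% interval 0.17 to 2.94), with a limma adjusted p = 0.755. The difference was 0.76 without Con1 and 2.34 without Con3. Paired by replicate number, which the labels do not explain, *Ccnd1* was the only one of the 40 genes called (limma adjusted p = 0.0199), beside 8.49% of all genes tested. The same pairing called 20 of 22 epithelial markers and 4 of the 5 crypt and stem cell markers tested, all higher in the KO libraries. It also called 3 of 11 T cell and IEL markers, all lower. With an epithelial score as a covariate the *Ccnd1* difference was 0.81 (limma adjusted p = 0.683). The epithelial marker sum, like *Ccnd1*, was lowest in Con1 and highest in KO3. That sum was lower in KO1 than in Con3 (4202 and 4528 FPKM), where *Ccnd1* was higher. The crypt and stem cell sum (107, 292, 321 and 799 FPKM) had the same order of libraries as *Ccnd1*. The sizes differed, as *Ccnd1* had 8.05 and 8.85 FPKM in KO1 and KO3. There the epithelial sum was 4202 and 11152 FPKM and the crypt and stem cell sum 321 and 799 FPKM. The part of epithelial RNA in the level of *Ccnd1* was not tested further.

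*Ccnd2* had 131.6, 121.2, 115.3 and 123.4 FPKM, and its log2 difference was -0.08 (95% interval -0.50 to 0.33). *Ccnd3*, which supports the expansion of developing thymocytes, had 138.3, 99.2, 116.3 and 91.5 FPKM, a log2 difference of -0.18 (95% interval -0.78 to 0.41). Both were higher in Con1 than in Con3, the reverse of the mitotic members. *Cdk4*, a partner kinase of D-type cyclins, had 146.1, 181.1, 140.8 and 180.3 FPKM, and *Cdk6*, the other, had 22.3, 21.7, 26.04 and 17.9 FPKM. *Cdk4* thus followed the replicate number in the label, with libraries 3 above libraries 1 in both groups, and neither kinase separated the groups.

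The E-type cyclins, which start DNA replication with Cdk2, were also higher in the libraries numbered 3. *Ccne1* had 19.7, 25.3, 20.2 and 22.2 FPKM, and *Ccne2* had 15.1, 19.8, 14.4 and 21.3 FPKM. *Cdk2* had 46.8, 55.7, 53.3 and 52.7 FPKM, with its KO libraries between the controls and a log2 difference of 0.05 (95% interval -0.40 to 0.51).

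None of the 3 inhibitors of cyclin-dependent kinases was called. *Cdkn1a* encodes p21, an inhibitor induced by p53 and by other signals (chromosome 17, 29090979 to 29100722). It had 51.1 FPKM in Con1, 53.9 in Con3, 73.4 in KO1 and 68.1 in KO3. Each group was tight and the groups were well apart, at 52.5 ± 1.99 and 70.8 ± 3.78 FPKM (SD, n = 2 each). The log2 difference was 0.42 (SE 0.17, 95% interval 0.00 to 0.84), with a limma adjusted p = 0.755. It was 0.37 to 0.48 when any library was left out and 0.43 with the epithelial score as a covariate. In these settings it was the steadiest difference among the 6 genes without overlap. With scaling to *Cd3* genes and *Ptprc*, which moved the median of all genes to 0.38, it was 0.84.

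*Cdkn2c* encodes p18, which binds Cdk4 and Cdk6 (chromosome 4, 109660876 to 109666756). It had 11.1, 11.8, 10.2 and 6.11 FPKM. KO3 was far below the other libraries and KO1 just below them, and the log2 difference of -0.48 (SE 0.31, 95% interval -1.26 to 0.30, limma adjusted p = 0.761) was -0.81 without KO1 and -0.16 without KO3. *Cdkn1b*, which encodes p27, had 10.3, 12.0, 14.4 and 5.90 FPKM, so that the libraries labelled KO were the highest and the lowest of the 4. Its log2 difference of -0.23 was -0.81 without KO1 and 0.35 without KO3.

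Among the regulators of transcription, *E2f1* and *E2f2* lay on opposite sides of 0. *E2f2*, an activating E2F factor (chromosome 4, 136172274 to 136196057), had 7.92, 10.7, 11.0 and 13.3 FPKM. KO1 was only just above Con3. The order of libraries was that of the crypt and stem cell sum (107, 292, 321 and 799 FPKM), and that of the epithelial sum but for Con3 and KO1. The log2 difference of 0.36 (SE 0.27, 95% interval -0.33 to 1.04, limma adjusted p = 0.777) was 0.08 with the epithelial score as a covariate. *E2f1*, the founding member of the family, had 7.22, 3.60, 4.33 and 2.84 FPKM, a log2 difference of -0.44 (95% interval -1.46 to 0.57) that was -0.02 without Con1 and -0.86 without Con3.

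*Rb1*, which encodes the retinoblastoma protein, had 9.48, 7.44, 9.85 and 6.82 FPKM, lower in the libraries numbered 3 of both groups. *Foxm1* and *Mybl2*, whose products switch on the mitotic genes, were low and even. *Foxm1* had 4.26, 4.70, 4.58 and 5.28 FPKM, and *Mybl2* had 4.40, 4.91, 4.21 and 4.73 FPKM. Con3 was above Con1 for both, by 0.12 and 0.13 on the log2 scale, which is less than the median gap of 0.50 of the mitotic members.

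**Figure D5:**
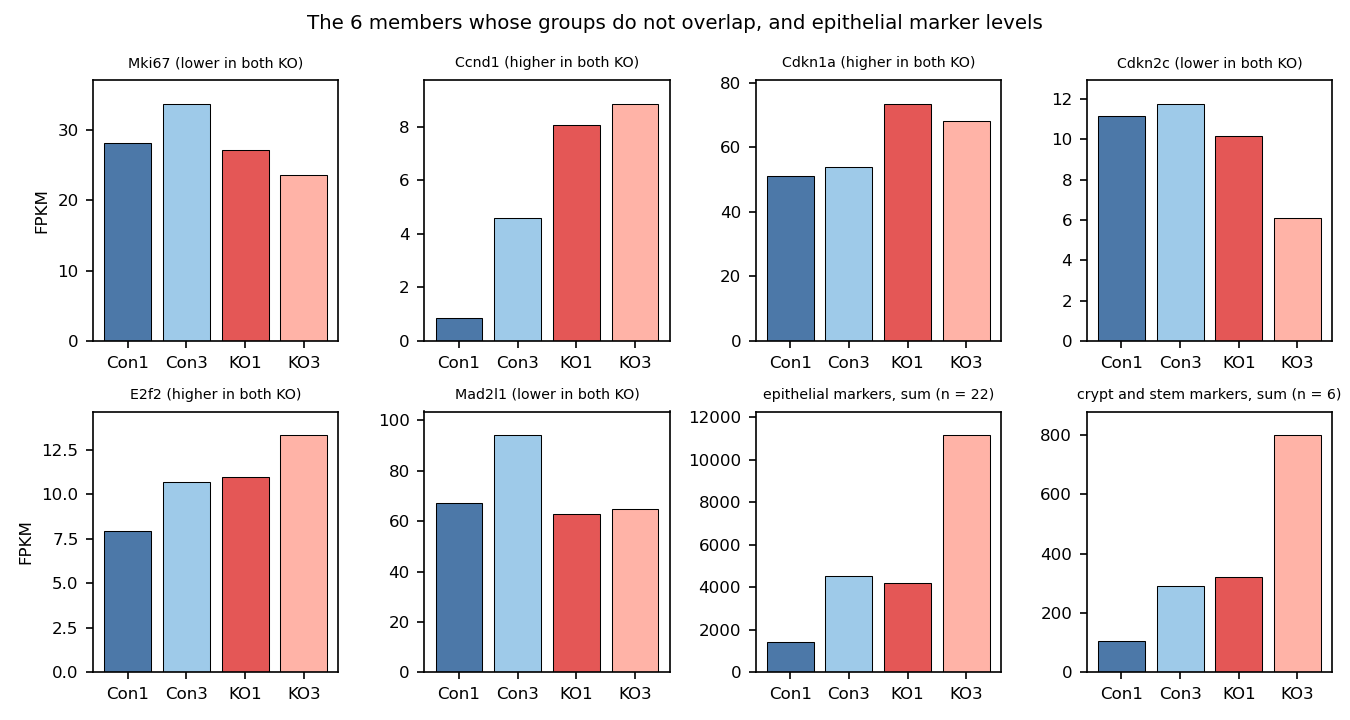
FPKM in each library (bars from 0, 1 library each, so no error bars) for the 6 genes whose control and KO libraries do not overlap, with the summed FPKM of 22 epithelial and 6 crypt and stem cell markers in the last panels. *Cdkn1a* has both groups tight and apart, while *Ccnd1* and *E2f2* are lowest in Con1 and highest in KO3, like the marker sums. Both of the latter genes are higher in KO1 than in Con3, like the crypt and stem cell sum and unlike the epithelial sum.

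Other genes of the cell cycle, on lists that exclude the 40, had no gene called in limma without the replicate block. Of 87 other mitosis genes, all passed the filter, 17 were lower in both KO libraries, beside 18.6% of all genes tested, and 3 higher, beside 18.4%. A negative difference was found for 61 of the 87, beside 5993 of the 12009 genes tested, and the median was -0.12. Con3 was above Con1 for 82 of the 87 and was the highest library for 63 (72.4%, beside 16.1% of all genes tested). The lowest differences among those without overlap were those of *Tubb5* (a β-tubulin, 741, 836, 670 and 361 FPKM, -0.68), *Stil* (a centriole protein, 12.3, 17.3, 8.71 and 10.7 FPKM, -0.55) and *Pimreg* (28.2, 28.0, 20.4 and 17.8 FPKM, -0.53). The 3 that were higher were *Cdc25a* (a phosphatase that activates cyclin-dependent kinases, 6.82, 5.78, 6.94 and 9.94 FPKM, 0.36), *Wee1* (a kinase that holds Cdk1 inactive, 5.27, 3.70, 5.52 and 6.38 FPKM, 0.35) and *Cenpm* (19.1, 21.5, 22.2 and 22.4 FPKM, 0.13).

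S-phase genes were also highest in Con3 in most cases. All 19 were higher in Con3 than in Con1, none was higher in KO1 than in Con3, and Con3 was the highest library for 18 (94.7%, beside 16.1% of all genes tested). The median log2 difference between the groups was -0.16, and 17 of the 19 were negative, beside 5993 of the 12009 genes tested. An unadjusted limma p under 0.05 was found for 1, beside 5.35% of all genes tested. No gene of the list was higher in both KO libraries, beside 18.4% of all genes tested, and 3 were lower, beside 18.6%. These 3 were *Cdc45* (a part of the replicative helicase, 25.9, 33.6, 19.7 and 19.8 FPKM, -0.56), *Chaf1a* (a histone chaperone, 22.6, 25.2, 18.4 and 20.6 FPKM, -0.28) and *Dnmt1* (the maintenance DNA methyltransferase, 35.8, 39.0, 29.7 and 32.6 FPKM, -0.26).

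Of 42 other G1 and Rb-E2F genes found, 39 passed the filter, 8 were lower and 5 higher in both KO libraries, beside 18.6% and 18.4% of all genes tested, and the median was -0.08. With the replicate block, 2 of the 39 were called in limma, beside 8.49% of all genes tested, *Cdkn2b* (6.12, 16.5, 12.8 and 35.7 FPKM, 1.02, adjusted p = 0.0125) and *Cables1* (57.9, 27.1, 33.3 and 17.9 FPKM, -0.68, adjusted p = 0.0348), which are named for that call after their values were seen. *Cdkn2b* had the order of libraries of the epithelial marker sum (1440, 4528, 4202 and 11152 FPKM), and *Cables1* had the reverse order. The part of epithelial RNA in these levels was not tested. Con3 was above Con1 for 15 of the 39 and was the highest library for 6 (15.4%, beside 16.1% of all genes tested). *Fzr1*, which encodes Cdh1, the activator of the anaphase-promoting complex in G1, had the highest difference among those without overlap, 0.74 (SE 0.34, 95% interval -0.10 to 1.58), with 33.6, 17.0, 42.5 and 39.0 FPKM. *Myb* (3.20, 3.95, 5.24 and 5.76 FPKM, 0.51) and *E2f3* (2.14, 2.32, 3.18 and 2.57 FPKM, 0.26) followed. *Mnat1*, a subunit of the kinase that activates cyclin-dependent kinases, had the lowest, -0.46, with 17.3, 16.9, 13.1 and 11.3 FPKM, before *Lin9* (9.44, 10.1, 8.39 and 7.38 FPKM, -0.28) and *Mdm2* (51.4, 47.6, 44.8 and 39.0 FPKM, -0.24).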

How the data were processed

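RNA-seq of 4 libraries was used. The authors aligned cleaned reads against mm10 (HISAT, Bowtie2) and estimated gene levels by RSEM (Bowtie2 2.2.5 and RSEM 1.2.8 per the submitters' processing notes; the annotation is not given in the sources used here). The deposited values are FPKM, already scaled to transcript length and library size, with 2 decimals. Entrez identifiers were given symbols and coordinates from RefSeq GRCm38.p6, which named 18467 of 19339 genes; *Cdkn2a*, on the G1 list, was not analysed here.

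Genes that reached 1 FPKM in 2 or more libraries were tested on log2(FPKM + 1), with a pseudocount of 1, with limma 3.58.1 (lmFit, eBayes with a trend, R 4.3.3) and Benjamini-Hochberg adjustment over all 12009. A fold change on this scale understates that of low genes. The model was tested on simulated data. Groups came from the labels. Nothing says whether pools of the same number were prepared together. The p-values set the difference between the groups against the spread between pools, which limma moderates across genes. Relative depth came from the steps of low FPKM values of single-transcript genes. An epithelial score is the mean log2(FPKM + 1) of 22 markers. The members and lists were chosen with earlier results of these data known. Genes of the other cell cycle lists are named when among the 3 highest or 3 lowest differences of their list without overlap between the groups. The exceptions are *Cdkn2b* and *Cables1*, whose groups overlap and which are named because the replicate block called them. Alternatives were other pseudocounts, filters and scalings, a replicate block, no trend, the epithelial covariate and leaving out each library. Motifs were searched with Python 3.11.15.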

Additional observations from a re-analysis of the deposited data

How the results depend on the processing

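No alternative gave an adjusted p under 0.05 for any of the 40 genes except the replicate block. The replicate block, which pairs libraries by the number in their labels, called 1 of the 40, *Ccnd1* (adjusted p = 0.0199), 2 of the other G1 and Rb-E2F genes (1 lower, 1 higher), none of the other mitosis and S-phase genes, and 1019 of all genes tested, beside 0 without it. The labels do not say that equal numbers mark a shared batch, and with 2 pairs the correlation of deviations from the group means was 0.56 (Spearman 0.54) over 12009 genes and 0.50 (0.44) over the 40, across genes, which are not independent replicates. An epithelial covariate called 95 of all genes and none of the 40, left 0 of them above 1 and made 32 of the 40 negative (median -0.19). Quantile normalization put 5 of the 40 below both controls instead of 3, beside 2852 of the 12009 genes tested instead of 2230. Scaling to *Cd3* genes and *Ptprc* moved the median of all genes to 0.38 and that of the 40 to 0.39, so that 20 of the 40 lay below the median of all genes, with 0 of the 40 lower and 6 higher in both KO libraries, beside 292 and 4487 of the 12009, and *Kdm6b* at 0.22.

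Leaving out a library changed the counts most. The number of the 40 below all controls was 6 to 27 and the number above 3 to 23: without Con1, 27 were lower and 3 higher (3435 and 3476 of the 12009 genes tested), without Con3, 6 and 23 (4385 and 4578), without KO1, 8 and 7 (4733 and 4712), and without KO3, 12 and 6 (3614 and 3903). With a single library in a group, which is assumed to vary like the others, groups overlap less by construction. The median was -0.18 without Con1 and 0.17 without Con3, within which the others lay. The number above 1 was 0 to 1, with 0 without Con1. *Kdm6b* ranged from -0.52 without KO1 to 0.16 without KO3. Pseudocounts of 0.1 and 0.01, no filter, a filter at 5 FPKM (37 of the 40 kept), median-of-ratios scaling and no trend left the counts of calls, of genes without overlap and of genes above 1 among the 40 as they were wherever they were computed, and the sign of each member kept. Over all genes tested the counts moved: those above 1 went from 744 to 1203 with a pseudocount of 0.1 and to 1254 with 0.01, those below -1 from 53 to 178 and 197, and those higher in both KO libraries from 2208 to 3500 with no filter and to 1452 with the filter at 5 FPKM, under which 34 were below -1. Depth is unknown, so no counting error can be given.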
